A study of Mus musculus with 6 samples.

Results

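The first step of chondrocyte maturation was examined by setting the prehypertrophic zone of the mouse femoral growth plate against the proliferative zone. The comparison used the 4 arrays labelled with these zones, 2 for each, out of 6 arrays in all. The other 2 arrays held the hypertrophic zone. In the fit of this comparison they served only to help estimate the spread. They also took part in the scaling, the floor for dim signals, the choice of probe and the choice of what to test. The comparison covered every mouse microRNA (miRNA) on the array, 690 names, of which 226 could be tested. All arrays held RNA from C57BL/6 mice at 12 days of age, and the labels name no transgene, deletion or treatment for any group. Each array received 100 ng of total RNA, labelled with Cy3, from the microdissected cartilage of 5 pooled growth plates. The labels do not say which animals entered which pool, so the p-values measure only the spread between these pooled samples.

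The growth plate is the cartilage that lengthens long bones. Its chondrocytes divide in columns in the proliferative zone, leave the cell cycle in the prehypertrophic zone and then enlarge in the hypertrophic zone next to vessels and forming bone. miRNAs are short RNAs that guide repression of messenger RNAs, mainly through the seed, the bases 2 to 8 of the mature strand, so that miRNAs with one seed can share targets. A hairpin precursor can give a strand from each arm, and in the older names used on the array a star marks the arm held to be less abundant. The star was not set from these data. In the prehypertrophic zone the probes of miR-181a-1* and miR-140* were brighter than those of miR-181a and miR-140.

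Mature sequences are given for the miRNAs on which the comparison turns, with the seed in capitals. They were taken from RefSeq (build GRCm38.p6), which held a mature sequence for 160 of the 226 tested miRNAs. The first set holds the 5 miRNAs that passed the test.
miR-181a-1*: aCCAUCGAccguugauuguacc
miR-503: uAGCAGCGggaacaguacugcag
miR-322: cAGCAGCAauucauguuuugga
miR-322*: aAACAUGAagcgcugcaacac
miR-22: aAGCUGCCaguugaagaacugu
On that build, miR-322 lies at chrX:53054306-53054327, miR-322* at chrX:53054269-53054289 and miR-503 at chrX:53054027-53054049, all on the minus strand. The strand miR-181a-1* lies at chr1:137966508-137966529 and miR-22 at chr11:75463772-75463793, both on the plus strand. RefSeq's mature records say nothing of exons or untranslated regions.

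A second set shows relatives that share a seed with one another or with miR-322 but differed in direction or size. miR-16 and miR-15b carry the seed of miR-322, miR-181a, miR-181b and miR-181d share a seed, and so do miR-99a, miR-99b and miR-100.
miR-16: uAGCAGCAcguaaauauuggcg
miR-15b: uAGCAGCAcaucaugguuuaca
miR-181a: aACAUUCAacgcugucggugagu
miR-181b: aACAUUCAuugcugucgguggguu
miR-181d: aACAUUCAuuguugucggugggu
miR-99a: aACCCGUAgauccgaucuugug
miR-99b: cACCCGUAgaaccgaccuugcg
miR-100: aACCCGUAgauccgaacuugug

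Between 23.8% and 27.6% of the spots on an array exceeded background clearly, and no spot was saturated. The proliferative zone had 201 miRNAs detected (well above background) on both of its arrays and the prehypertrophic zone 205. The 2 prehypertrophic arrays resembled each other more closely than the 2 proliferative arrays did, with a median SD of 0.15 against 0.31 log2 units over the tested miRNAs. Their levels correlated at 0.976 within the prehypertrophic pair and 0.954 within the proliferative pair. Between arrays of different zones the correlation was 0.944 to 0.967, a range that includes the value of the proliferative pair. The first proliferative array exceeded the second by more than 0.5 log2 units for 55 miRNAs and lay below it by that margin for 41, whereas these counts were 8 and 20 for the prehypertrophic pair. Of the 66 tested miRNAs without a RefSeq sequence, the first proliferative array was above the second for 12, against 83 of the 160 with one. Of the names that mark cartilage, the chondrocyte miRNA miR-140, its other arm miR-140* and miR-455 were well above background on every array, and so was miR-675-3p, from the H19 transcript, on all 4 arrays compared, while its other arm miR-675-5p was so on none.

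Levels are log2 scaled signals, the probe's brightness after scaling each array to a common 75th percentile, with dim signals raised to a floor of 3.66. Single values are listed in the order first and second proliferative, then first and second prehypertrophic array. Differences are prehypertrophic minus proliferative in log2 units from limma, with Benjamini-Hochberg adjusted p-values over the 226 miRNAs and a threshold of 0.05. In this bulk tissue, fewer cells of a type and less RNA per cell cannot be told apart.

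In the prehypertrophic zone 5 miRNAs were higher and none was lower at the threshold, 2.21% of the 226 tested in either direction, 2.21% for higher and 0% for lower. At an unadjusted p below 0.05 limma gave 16 higher and 13 lower. Of the 5, 3 come from the cluster on the X chromosome that holds miR-322 and miR-503, 1 from the miR-181a-1 hairpin, and the last is miR-22. Most other miRNAs differed little between the zones: the median difference was -0.14, the quartiles were -0.34 and 0.08, and 9 of 226 differed by more than 1 log2 unit. Both prehypertrophic arrays lay above both proliferative arrays for 27 miRNAs (11.9%) and below both for 55 (24.3%). These counts are those of the main scaling. The median difference depended on the scaling, at -0.02 with the 75th percentile of all probes, -0.01 with median scaling and 0.16 without scaling.

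miR-322, called miR-424 in human and a member of the miR-15 and miR-16 seed family that represses cell-cycle genes, stood at 7.16, 6.57, 8.94 and 8.98. The prehypertrophic arrays thus nearly coincided and both were far above the proliferative ones. The miRNA was 4.27-fold higher (difference 2.10, SE 0.28, limma adjusted p = 0.00152). The difference was 1.78 between the arrays with title numbers 13 to 15 and 2.41 between those numbered 16 to 18, the title numbers forming runs that the labels do not call batches. A second, dimmer probe for miR-322 gave 2.15.

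miR-503, made from the neighbouring hairpin, carries a seed that differs from that of miR-322 only in the last base. It stood at 6.65, 6.47, 8.48 and 8.64. No array of one zone came near those of the other, and the level was 4.0-fold higher (difference 2.0, SE 0.26, limma adjusted p = 0.00152). Its second probe was at the floor on both proliferative arrays and at 5.58 and 5.73 on the prehypertrophic ones, which gives only a bound. The mature strands of miR-322 and miR-503 agree at 11 of 22 positions counted from the 5' end.

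miR-322*, the opposite strand of that hairpin's duplex, stood at 4.71, 4.05, 5.89 and 6.27. The groups did not overlap, but 1 of the 2 proliferative arrays was not well above background, so the size of the 3.24-fold rise (SE of log2 0.30, limma adjusted p = 0.0117) is loosely set. The call was kept in 8 of 21 other settings, not all of them separate fits. It was lost, among others, with 4 other scalings (75th percentile of all probes, median, quantile and none) and with normexp. The difference was 1.18 in the lower and 2.21 in the higher run of title numbers. Its other 3 probes were at or close to the floor.

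**Figure D1:**
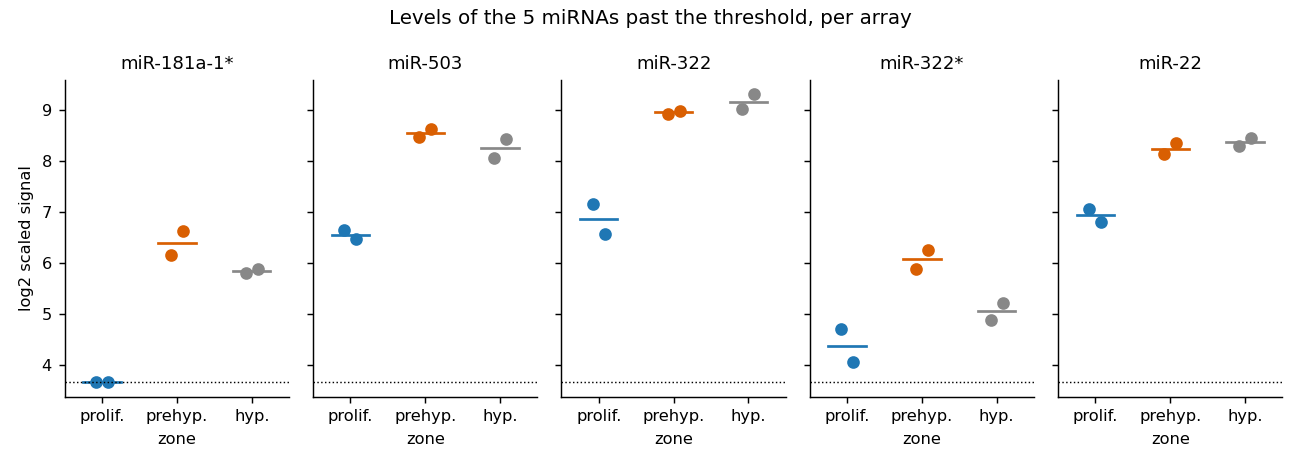
Log2 scaled signal (y axis) of the 5 miRNAs past the threshold in the proliferative, prehypertrophic and hypertrophic zones (x axis). Each point is 1 array, the bar is the mean of 2 arrays, and the dotted line is the floor of 3.66. For each miRNA both prehypertrophic points lie above both proliferative points, and both proliferative points of miR-181a-1* lie on the floor.

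The other members of the X-linked cluster pointed the same way without passing. Of 11 cluster names on the array 7 were tested, 3 passed as higher and 0 as lower. The median difference of the 7 was 0.76, beside -0.14 for all tested miRNAs. It was 0.83 to 1.07 under the other scalings, 0.44 with normexp background correction and 2.13 with the authors' deposited log2 table. miR-450b-3p was detected on no proliferative array, so its sign was fixed by the filter, and miR-322* was detected on 1. Over the 5 members whose brightest probe was well above background on all 4 arrays the median was 0.74, beside -0.17 for the 189 such miRNAs in all. miR-351, which shares its seed with miR-125a-5p and miR-125b-5p, stood at 6.37, 6.40, 7.17 and 7.07 (difference 0.74, adjusted p = 0.182). miR-542-3p stood at 5.10, 4.81, 5.67 and 5.6 (difference 0.68, adjusted p = 0.26). For both, the zones did not overlap. miR-450b-3p was at the floor on both proliferative arrays and at 4.34 and 4.51 on the prehypertrophic ones, at least 1.46-fold apart (adjusted p = 0.205). miR-542-5p (5.03, 4.33, 5.38 and 5.0) was the tested member whose arrays overlapped between zones, and miR-503* was well above background on no array.

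RefSeq gives the seed of miR-322 to 5 other tested miRNAs, miR-15a, miR-15b, miR-16, miR-195 and miR-497, known for restraining cyclins. None of these 5 passed, and their differences ran from -0.69 to 0.05, with a median of -0.25 that spanned -0.15 to 0.00 under the other scalings. miR-15b stood at 7.86, 6.96, 6.87 and 6.57 (difference -0.69, adjusted p = 0.447). miR-16 stood at 7.31, 6.43, 6.46 and 6.47 (difference -0.40, adjusted p = 0.688), so that the first proliferative array was high and the other 3 were alike. Both prehypertrophic arrays of miR-15b were below both proliferative arrays, and those of miR-16 were not. For all 5 miRNAs the first proliferative array exceeded the second. Their median difference was -0.81 in the lower and 0.25 in the higher run of title numbers, and the list median was 0.29 with proliferative array 1 and -0.78 with array 2 left out.

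miR-181a-1*, the star strand of the first miR-181a hairpin, was at the floor on both proliferative arrays and at 6.15 and 6.62 on the prehypertrophic arrays. It was at least 5.69-fold higher (SE of log2 0.26, limma adjusted p = 2.24e-04), and because the floor set the spread of the proliferative pair to 0, that spread is unmeasured. The second probe for this strand was likewise at the floor in the proliferative zone and at 5.25 and 5.81 in the prehypertrophic zone.

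The strands of the miR-181 family named without a star, first described in lymphocytes, were less far apart. Of 6 family names on the array 4 were tested, 1 passed as higher and 0 as lower. Of these 4, miR-181a and miR-181a-1* were detected on no proliferative array, so the filter fixed their sign. The median of 0.89 falls to 0.17 over the other two, miR-181b and miR-181d, and was 0.27 with normexp background correction and 0.41 with 2 times the floor. miR-181a, from the same hairpin as miR-181a-1*, was at the floor on both proliferative arrays and at 4.58 and 4.76 in the prehypertrophic zone, at least 1.73-fold apart (adjusted p = 0.105), and its other probe was at the floor on all 4. miR-181b stood at 5.74, 6.14, 6.40 and 7.04 (difference 0.78, adjusted p = 0.265). miR-181d, which matches miR-181b at 22 of 23 positions, stood at 5.69, 6.11, 5.15 and 5.79 (difference -0.43, adjusted p = 0.657). Its arrays overlapped between the zones, while those of miR-181a and miR-181b did not. RefSeq places miR-181d on chromosome 8 and copies of miR-181a and miR-181b on chromosomes 1 and 2. With near-identical strands, signal from one can reach the probe of another.

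miR-22, a widely expressed miRNA linked to cell-cycle arrest and senescence, stood at 7.07, 6.81, 8.13 and 8.36. Both prehypertrophic arrays were above both proliferative ones, and the level was 2.48-fold higher (difference 1.31, SE 0.26, limma adjusted p = 0.0187). Within the runs of title numbers it differed by 1.07 and 1.55, and a second probe, at the floor in the proliferative zone, stood at 4.75 and 5.15 in the prehypertrophic zone. The call was kept in 9 of 22 other settings, not all of them separate fits. It was lost, among others, when any 1 of the 6 arrays was left out.

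The calls rest on a spread shared with the hypertrophic arrays. With only the 4 proliferative and prehypertrophic arrays 0 miRNAs passed in limma (smallest adjusted p = 0.053, 24 at an unadjusted p below 0.05). Leaving out either hypertrophic array gives that same fit for these zones. In these fits, and wherever an array was left out, the scaling, floor, choice of probe and filter still came from all 6 arrays. Row 2 of the slide held both prehypertrophic arrays and the second proliferative array, row 1 the first. Within row 2 the difference was 2.39 for miR-322, 2.09 for miR-503, 2.03 for miR-322* and 1.44 for miR-22, with miR-181a-1* at the floor on the proliferative array, and with the row as a block all but miR-22 passed. Without the second proliferative array 10 passed, 3 higher and 7 lower, and without the second prehypertrophic array 3 passed.

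**Figure D2:**
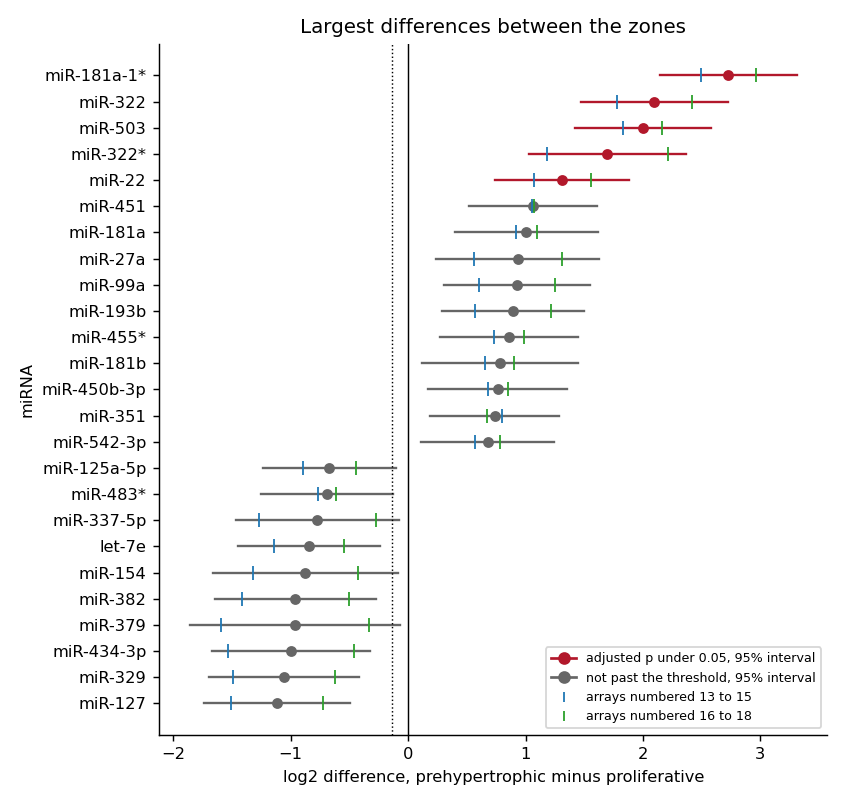
Difference between the zones in log2 units (x axis) for the 5 miRNAs past the threshold (red) and the 10 higher and 10 lower with the next smallest p-values among those whose zones do not overlap (grey). Points are limma estimates, horizontal lines are 95% intervals, ticks are the differences within the 2 runs of title numbers, and the dotted line is the median of all tested miRNAs at -0.14. The ticks of the miRNAs on the negative side, except miR-483*, lie far apart, with the larger difference in the run numbered 13 to 15.

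Beyond the 5, miRNAs of several kinds had both prehypertrophic arrays above both proliferative ones without passing. miR-451, a red-cell miRNA, stood at 3.79, 3.66, 4.84 and 4.74 (difference 1.06, SE 0.25, adjusted p = 0.0553). It was well above background on 1 proliferative array, and its other probe was at the floor on both proliferative arrays. It passed with 4 other settings, namely 0.5 times the floor, no filter, the deposited table and the run of title numbers as a block (adjusted p = 0.0379). miR-99a, which targets the mTOR pathway, stood at 7.78, 7.15, 8.39 and 8.40 (difference 0.93, adjusted p = 0.149). miR-193b stood at 5.12, 4.58, 5.69 and 5.80 (difference 0.89, adjusted p = 0.149). miR-193b is encoded beside a copy of miR-365, which stood at 4.58, 4.37, 4.03 and 4.55 (difference -0.19). RefSeq places another copy of the same mature strand on chromosome 11, and the array cannot tell the copies apart. miR-27a stood at 6.45, 5.79, 7.01 and 7.10 (difference 0.93, adjusted p = 0.182), whereas miR-27b, its paralogue with 20 of 21 positions in common, differed by 0.01. The hypoxia-induced miR-210 (9.07, 8.98, 8.80 and 8.66) and miR-21 (4.48, 3.66, 4.46 and 4.47) did not pass (adjusted p = 0.688 for each).

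The relatives of miR-99a had differences of either sign, none past the threshold. miR-99a and let-7c are neighbours on chromosome 16, and miR-99b, let-7e and miR-125a-5p belong to a cluster on chromosome 17. miR-99b stood at 5.11, 4.68, 4.22 and 4.39 (difference -0.59, adjusted p = 0.388), opposite to miR-99a, with which it shares 18 of 22 positions. let-7e stood at 8.61, 8.05, 7.46 and 7.50 (difference -0.84, adjusted p = 0.164), and miR-125a-5p at 6.80, 6.48, 5.90 and 6.03 (difference -0.67, adjusted p = 0.26). On chromosome 17 the zones of these 3 miRNAs did not overlap. The cluster's 5 tested strands also include miR-99b* and miR-125a-3p, which differed by -0.47 and 0.16 and whose zones overlapped. miR-100, which matches miR-99a at 21 of 22 positions, stood at 6.30, 5.6, 5.77 and 5.96 and differed by -0.09. None of the 7 tested members of the miR-99, miR-100 and miR-125 list passed, and their median was -0.09 (0.01 to 0.25 under the other scalings, 0.08 with proliferative array 1 and -0.22 with array 2 left out).

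The list of let-7 and miR-98, a family that accumulates as cells differentiate, had 10 tested members, of which 0 passed as higher and 0 as lower. It includes let-7g*, a star strand with another seed. In 9 of the 10 the difference was negative, beside 66.4% of all tested. The median was -0.26 beside -0.14, and without scaling it was 0.08. Among the 9 that share the let-7 seed, 8 differences were negative and the median was -0.24. let-7b stood at 11.55, 11.30, 10.87 and 10.89 (difference -0.54, adjusted p = 0.399), and let-7c at 11.60, 11.26, 11.04 and 11.08 (difference -0.37, adjusted p = 0.657). The prehypertrophic arrays were below the proliferative ones for both, and for 4 of the 10 in all, beside 24.3% of all tested. The list median was -0.08 with proliferative array 1 and -0.47 with array 2 left out.

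The widest negative differences belonged to the imprinted Dlk1-Dio3 domain on chromosome 12, whose miRNAs are transcribed from the maternal chromosome. In the list named for miR-127 and miR-434, which lie antisense to Rtl1, 7 of 22 names were tested and 0 passed, with a median of -0.35. The list is wider than that stretch. It also holds miR-770-3p at chr12:109563744 and miR-370 at chr12:109618305, which lie outside the group from miR-337-5p to miR-434-3p. miR-431* was detected on both arrays of the proliferative zone alone. The other 6 differences were negative, as were 66.4% of all tested. miR-127 stood at 8.94, 8.35, 7.43 and 7.62 (difference -1.12, SE 0.28, adjusted p = 0.0796). miR-434-3p stood at 6.89, 6.24, 5.36 and 5.78 (difference -1.0, adjusted p = 0.149), and miR-337-5p at 5.29, 4.39, 4.02 and 4.12 (difference -0.77, adjusted p = 0.309). The zones did not overlap for these 3, and the median of this list was -0.01 at its closest to 0 under the other scalings.

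Further along the domain, in the region from miR-379 to miR-154, 10 of 50 names were tested and 0 passed in either direction. The median was -0.65 (-0.56 to -0.31 under the other scalings), 8 of 10 differences were negative, beside 66.4% of all tested, and 7 of 10 had both prehypertrophic arrays below both proliferative ones, beside 24.3%. The median was -0.29 with proliferative array 1 left out and -0.96 with array 2 left out. miR-329 stood at 6.59, 5.91, 5.10 and 5.29 (difference -1.06, SE 0.29, adjusted p = 0.105). miR-382 stood at 5.4, 4.56, 3.99 and 4.06 (difference -0.96, adjusted p = 0.164), miR-154 at 5.55, 4.40, 4.23 and 3.97 (difference -0.88, adjusted p = 0.309) and miR-379 at 6.87, 5.43, 5.27 and 5.09 (difference -0.97, adjusted p = 0.324). In each of these the first proliferative array stood highest.

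The size of these negative differences differed between the runs. It was -1.60 for miR-379 in the lower and -0.33 in the higher run of title numbers, -1.51 and -0.73 for miR-127, and -1.49 and -0.62 for miR-329. The median of the miR-379 to miR-154 region was -1.07 and -0.38 in the 2 runs. Without the second proliferative array miR-127, miR-154, miR-299*, miR-329, miR-337-5p, miR-379 and miR-382 all passed as lower, and without the first none of them did. What sets the proliferative arrays apart was not tested.

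**Figure D3:**
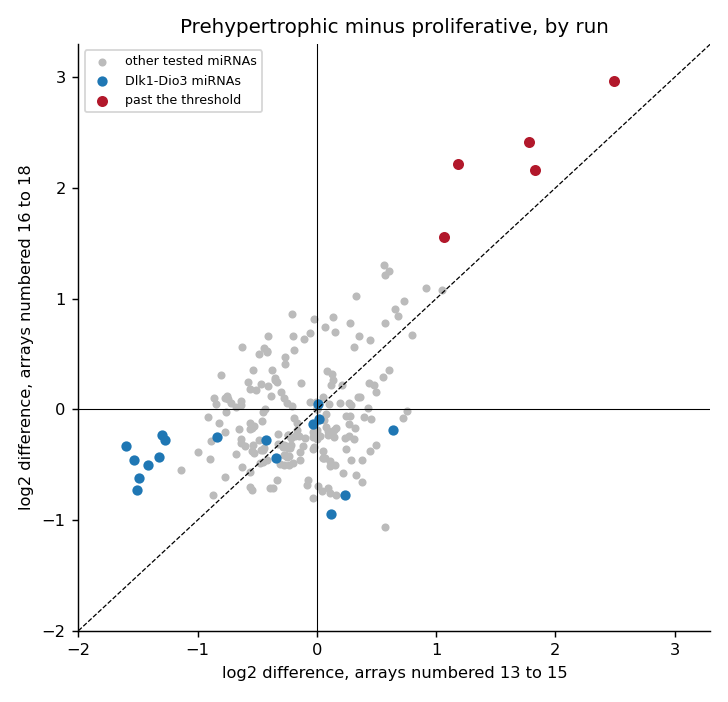
Prehypertrophic minus proliferative difference in log2 units for the arrays with title numbers 13 to 15 (x axis) against those numbered 16 to 18 (y axis), 1 point per tested miRNA, with equal differences on the dashed line. The 5 miRNAs past the threshold (red) lie above the line at the upper right. Of the 17 tested miRNAs on the Dlk1-Dio3 lists (blue), 8 lie left of -1 on the x axis and above the line.

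Lists linked to proliferation and to the chondrocyte gave no call. In the miR-17 to miR-92a cluster and its paralogues, which promote division, 0 of 11 tested members passed. The list median was -0.03 but 0.07 to 0.28 under the other scalings, so its direction was not settled. miR-20b stood at 5.35, 4.83, 5.68 and 5.85 (difference 0.68, adjusted p = 0.314), miR-20a at 7.18, 6.61, 7.45 and 7.39 (difference 0.53, adjusted p = 0.512) and miR-19b at 7.76, 7.04, 7.89 and 7.88 (difference 0.48, adjusted p = 0.632). The star strand miR-92a* stood at 6.36, 6.72, 5.80 and 6.01 (difference -0.63, adjusted p = 0.338). In the 5 tested cartilage names 0 passed, with a median of -0.12 (-0.02 to 0.22 under the other scalings, 0.06 with proliferative array 1 and -0.48 with array 2 left out). miR-140 stood at 11.26, 10.55, 10.79 and 10.78 (difference -0.12, 95% interval -0.79 to 0.55), miR-140* at 12.78, 12.01, 12.07 and 12.06 (difference -0.33) and miR-455 at 9.70, 9.69, 9.49 and 9.72 (difference -0.09). miR-455*, the other arm of the miR-455 hairpin, stood at 4.81, 4.63, 5.54 and 5.62 (difference 0.86, adjusted p = 0.153). miR-675-3p stood at 4.64, 4.41, 4.10 and 4.03 (difference -0.46, adjusted p = 0.512). The zones of these last 2 did not overlap, in opposite directions.

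**Figure D4:**
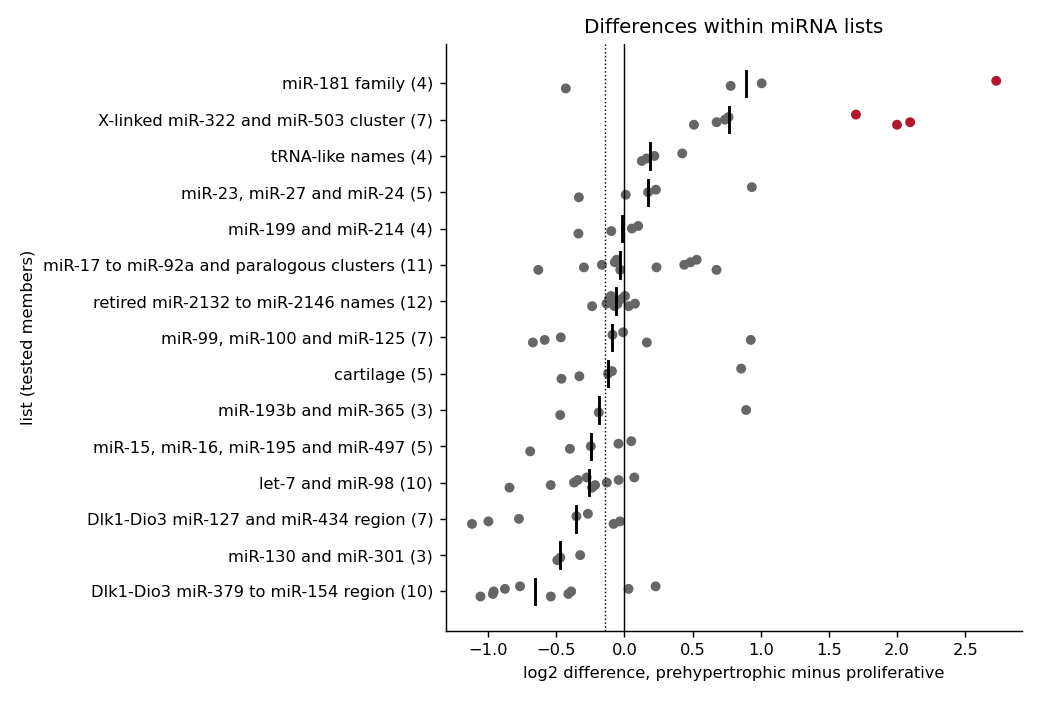
Differences between the zones in log2 units (x axis) of each tested member of the lists with at least 3 tested members (y axis, number of tested members in parentheses). Each point is 1 miRNA, red where it passed the threshold, black bars are list medians, and the dotted line is the median of all tested miRNAs. Points right of 2 log2 units belong to the X-linked cluster and to miR-181a-1*, and the list of the miR-379 to miR-154 region has the lowest median, -0.65.

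Other lists of seed relatives or neighbours had 0 calls. The median was -0.47 for the 3 tested members of the miR-130 and miR-301 family and -0.36 for miR-103 and miR-107. For miR-10 and miR-196 it was -0.41, and the 2 tested members were miR-196a and miR-196b. The median was 0.17 for the 5 of miR-23, miR-27 and miR-24, and -0.02 for the 4 of miR-199 and miR-214. Each of these last 2 lists holds strands with different seeds. The miR-26 pair had differences of 0.06 and -0.03. These medians moved when a proliferative array was left out. Leaving out array 1 or array 2 of that zone, in that order, gave -0.07 and -0.79 for miR-130 and miR-301, 0.01 and -0.72 for miR-103 and miR-107, -0.13 and -0.69 for miR-10 and miR-196, and 0.52 and -0.17 for miR-23, miR-27 and miR-24. The same gave 0.18 and -0.27 for miR-199 and miR-214, and 0.50 and -0.47 for miR-26. The p53-responsive miR-34 and miR-449 names were all too dim to be tested. The 12 tested retired names from miR-2132 to miR-2146 and the 4 tRNA-like names had medians of -0.06 and 0.19, which became -0.26 and -0.08 with proliferative array 1 left out and 0.12 and 0.46 with array 2 left out. The medians of miR-199 with miR-214 and of the retired names turned positive without scaling, at 0.32 and 0.28.

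Markers of other cell types were measured in the same arrays. Counting a name by any of its probes, of 8 blood and marrow names miR-451 was well above background on 1 proliferative and both prehypertrophic arrays, miR-223 on 1 prehypertrophic array, miR-486 on 1 proliferative array, and the other 5 on none. Summed over the 8, the scaled signal before the floor was 27.0 and 42.8 in the proliferative and 45.2 and 47.8 in the prehypertrophic zone. The 2 endothelial names summed to 0 in all 4 arrays, neither miR-126-3p nor miR-126-5p being well above background. The skeletal muscle list (5 names) summed to 157 and 165 in the proliferative and 163 and 121 in the prehypertrophic zone, with miR-208b the only name well above background. The epithelial list (6 names) summed to 71.9 and 70.4 in the proliferative and 82.1 and 53.0 in the prehypertrophic zone, with miR-429 and miR-205 detected and miR-200a, miR-200b, miR-200c and miR-141 well above background on no array. In the nerve list (2 names) miR-124 was well above background on the second array of each zone, with sums of 0.614 and 36.6 and then 0.239 and 18, and the smooth muscle, liver and bone lists held no name well above background. The part of blood cells in the difference of miR-451 was not tested.

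Whether the first step differed from the second, from the prehypertrophic to the hypertrophic zone, was tested in the same fit, and the steps share the prehypertrophic arrays. The first step minus the second was past the threshold for 4 of 226 miRNAs (1.77%). For miR-181a-1*, at the floor in the proliferative zone, the first step is only bounded (at least 5.69-fold) and the second was -0.54, so the size of the tested difference depends on the floor (limma adjusted p = 0.0063). For miR-503 they were 2.0 and -0.30 (difference 2.30, limma adjusted p = 0.0326), and for miR-322* 1.70 and -1.03 (difference 2.72, limma adjusted p = 0.0326). The second step of these 3 did not pass on its own (limma adjusted p of 0.279, 0.466 and 0.15). For miR-451 it was the reverse, 1.06 and then 3.12 (difference -2.05, limma adjusted p = 0.0384). miR-322 (2.10 and 0.21, limma adjusted p = 0.115) and miR-22 (1.31 and 0.13, limma adjusted p = 0.318) did not pass this test. Most of these calls were lost when any 1 array was left out, and with the slide row as a block 0 passed. Both hypertrophic arrays lay in row 1 and both prehypertrophic arrays in row 2. Why the calls were lost was not tested.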

How the data were processed

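miRNA levels in microdissected growth plate zones were measured on 6 one-colour arrays on 1 slide. Spot intensity was used as deposited: per the file headers, Feature Extraction 10.7.3.1 gave background-subtracted processed signals with an outlier flag and a flag for signal well above background. The authors' deposited log2 table, which per the labels came from GeneSpring, equalled log2 total signal per miRNA minus a constant per array. It was an alternative. Further upstream steps are not given in the sources used here.

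Outlier spots were left out and spots averaged per probe. Arrays were scaled to the 75th percentile of 342 probes well above background on all 6 arrays. A floor of 12.66 scaled units was set before log2, and each miRNA took its brightest probe. A miRNA was tested if its brightest probe was detected on both arrays of any 1 zone (226 miRNAs); other probes did not count. The fit used limma 3.58.1 (R 4.3.3) on all 6 arrays with zone as factor, after a test on simulated data. Of the 226, 9 entered only through the hypertrophic zone. A zone with no array well above background gives only a bound ("at least"): the brighter zone's mean against the dim zone's mean of, per array, the probe's own signal or, if higher, the lowest detected signal. The number of arrays limits the precision.

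Zones came from the sample labels, and no label pairs the arrays. The members and lists were chosen with earlier results of these data known. Named were the miRNAs past the threshold, up to 10 higher and 10 lower without overlap by p, up to 4 members of each list by p, fixed markers, and the other arms of those past the threshold. Others named (miR-19b, miR-27b, miR-100, miR-299* and miR-542-5p among them) were chosen after their values were seen. Array names follow miRBase 14 and were matched by hand to current names.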

Additional observations from a re-analysis of the deposited data

How the results depend on the processing

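The count of 5 miRNAs became 3 with the 75th percentile of all probes, with median scaling and with only miRNAs well above background on all arrays, 1 without scaling, 2 with the mean over probes, 10 with the authors' deposited log2 table, 8 with 0.5 times the floor, and 0 with 2 times the floor or with only the 4 arrays of these zones (24 at an unadjusted p below 0.05 in limma for each of the last 2). Leaving out 1 array gave 0 to 10. With 2 times the floor limma's prior degrees of freedom were 0.52 instead of 7.19. The count of 4 for the first minus the second step became 0 with the 75th percentile of all probes, without scaling and with the slide row as a block, 1 with median scaling, quantile normalization, the mean over probes, 2 times the floor, no filter, only miRNAs well above background on all arrays, outlier spots kept and the run of title numbers as a block, and 7 with the deposited table. Leaving out 1 array gave 0 to 1, and the 4 arrays alone cannot give it. Where not shown by construction, the cause was not tested. The count without a filter excluded 430 miRNAs at the floor on every array. Of the 10 calls with the deposited table, miR-183 and miR-1957 were below background in both zones.

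The call of miR-181a-1* held in 17 of 21 other settings, and those of miR-503 and miR-322 in 17 and 16 of 22. That of miR-322* held in 8 of 21 and that of miR-22 in 9 of 22. These settings are not all separate checks. Between these zones, the slide row as a block gives the same fit as leaving out proliferative array 1. Leaving out either hypertrophic array gives the fit of the 4 arrays alone. None of the 5 changed sign, but the filter had fixed the sign of miR-181a-1*. The median difference over all tested miRNAs was -0.14 in the main setting and 0.16 without scaling. It was -0.02 with the 75th percentile of all probes, -0.01 with median scaling and -0.04 with quantile normalization. The normexp alternative used the median spot signal. Scaling to probes with a RefSeq sequence, chosen after seeing the data, gave 5 calls and 4. The run of title numbers as a block gave 6 calls for the zones, miR-451 being the one added. Across miRNAs, first minus second array correlated at 0.577 between the 2 zones, a description only. The labels give no replicate numbers that pair the arrays.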
